A study of Mus musculus with 18 samples.

Results

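The AP-1 transcription factor family was followed in cultured mouse neurospheres, free-floating balls of neural stem and progenitor cells, before and during differentiation. The 10 genes named as members were Fos, Fosb, Fosl1 and Fosl2 of the Fos subfamily, Jun, Junb and Jund of the Jun subfamily, and Atf3, Batf3 and Maff from neighbouring subfamilies. Each gene was read from the probe sets whose only listed symbol was that gene, and where there were several, from the one with the highest mean over the 18 arrays. In this way 9 of the 10 members had a value, among 22180 genes on the array. Fosl1 had none, because its 1 probe set was shared with Ccdc85b. All 9 passed the filter on low values, which kept 19016 genes.

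There were 3 genotypes of culture, namely wild type, Pcdh19 knockout, and a mosaic mixed from cells of these genotypes. Each was measured as neurospheres at day 0 and as differentiated neurospheres at day 4, with 3 arrays for each of the 6 groups. Pcdh19 encodes a cell adhesion protein of the protocadherin family whose human counterpart is mutated in a form of epilepsy. The sources used here do not give how the knockout allele was made, what share of the mosaic cells was knockout or how differentiation was started. The replicates are called technical, so every p-value measures only the spread between these samples, which may be less than that between cultures or animals. These are bulk samples, in which fewer cells of a type and less RNA per cell cannot be told apart.

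AP-1 is a dimer. Fos proteins pair with Jun proteins through a leucine zipper, Jun proteins can also pair with each other, and members of the ATF, BATF and MAF subfamilies pair with some of them. Fos, Fosb, Jun, Junb and Atf3 are immediate early genes, transcribed within minutes of growth factor stimulation, depolarisation, stress or cell handling from factors already in the cell. Their mRNAs are short-lived, and in neural cells they are widely used as marks of recent stimulation.

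The 250 bases before the RefSeq start of each gene were read from a RefSeq promoter table of build GRCm38.p6, which held 11 entries for the 9 measured members, 3 of them for Maff. The 5 sequences shown here, 5′ to 3′ on the gene's own strand, belong to Fos, Fosb, Jun, Junb and Atf3. They were picked because these genes fell the most at day 4. Capitals mark TGACG or its reverse complement CGTCA, which is one side of the palindromic cAMP response element (CRE), the Jun-type element TGACATCA, and the TATA box TATAAA. The Fos sequence is chr12:85473640-85473889 on the plus strand, with TGACG at 129 to 125 and at 66 to 62 bases before the start and TATAAA at 33 to 28. Fosb is chr7:19310046-19310295 on the minus strand, with TGACG at 60 to 56 bases before the start. Jun is chr4:95052223-95052472 on the minus strand, with TGACATCA at 45 to 38. Junb is chr8:84978749-84978998 on the minus strand, with TGACG at 106 to 102. Atf3 is chr1:191183334-191183583 on the minus strand, with CGTCA at 7 to 3.
Fos: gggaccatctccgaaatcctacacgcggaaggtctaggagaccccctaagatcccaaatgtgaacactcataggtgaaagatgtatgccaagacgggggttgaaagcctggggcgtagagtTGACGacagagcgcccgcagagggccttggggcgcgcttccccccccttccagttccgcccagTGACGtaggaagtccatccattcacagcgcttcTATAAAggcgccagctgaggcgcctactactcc
Fosb: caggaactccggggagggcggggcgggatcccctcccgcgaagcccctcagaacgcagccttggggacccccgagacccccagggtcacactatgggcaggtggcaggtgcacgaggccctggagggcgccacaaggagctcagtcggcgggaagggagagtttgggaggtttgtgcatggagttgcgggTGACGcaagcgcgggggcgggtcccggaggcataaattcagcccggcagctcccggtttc
Jun: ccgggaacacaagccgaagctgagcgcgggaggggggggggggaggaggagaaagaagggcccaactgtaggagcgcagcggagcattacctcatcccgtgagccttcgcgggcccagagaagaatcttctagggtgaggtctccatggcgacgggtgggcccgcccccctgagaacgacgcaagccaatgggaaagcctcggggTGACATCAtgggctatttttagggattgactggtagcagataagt
Junb: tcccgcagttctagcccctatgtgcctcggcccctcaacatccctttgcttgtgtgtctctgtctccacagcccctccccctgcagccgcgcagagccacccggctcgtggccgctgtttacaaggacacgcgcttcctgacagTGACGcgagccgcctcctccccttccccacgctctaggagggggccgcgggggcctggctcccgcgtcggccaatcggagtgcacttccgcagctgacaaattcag
Atf3: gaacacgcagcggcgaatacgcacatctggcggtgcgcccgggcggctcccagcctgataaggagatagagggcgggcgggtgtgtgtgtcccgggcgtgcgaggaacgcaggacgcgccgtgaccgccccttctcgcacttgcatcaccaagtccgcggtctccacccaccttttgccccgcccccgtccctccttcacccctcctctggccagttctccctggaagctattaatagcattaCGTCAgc

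TGACG was present on either strand in 6 of the 11 member entries, those of Fos, Fosb, Junb, Atf3 and 2 of the Maff entries, and in 17.8% of all 32851 entries of the table. It was added to the search after the first 5 motifs had given few matches and after the sequences had been read, so its share is only a description. Of the first 5, the full CRE, TGACGTCA, which contains TGACG, was in 1 member entry (Maff) and in 1.55% of all. TGACATCA was in 2 entries (Jun and Maff) and in 2.93% of all, and TATAAA, on the given strand only, was in 1 (Fos) and in 7.59%. The AP-1 site TGANTCA was in 0 of the 11 and in 6.75% of all, and the CArG box, the element bound by serum response factor, was in 0 and in 1.47%. A match shows only that the letters are there, and a missing match only that they are not in this window.

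The deposited values ran from 0.722 to 13.97 on what was read as a log2 scale, with array medians of 4.85 to 4.99. Arrays of a group correlated at 0.981 to 0.986 over all probe sets and arrays of different days at 0.955 to 0.972. Pcdh19 read 6.66 to 6.98 on the 6 wild type arrays and 5.39 to 5.86 on the 6 knockout arrays. On the mosaic arrays it read 5.65 to 6.31 at day 0, and 6.54, 7.09 and 5.52 at day 4, so that replicate 2 lay above every wild type array and replicate 3 within the knockout range. Whether its probe set lies in the deleted part is not known. All samples are labelled female, yet on all 18 arrays the Y-linked genes Eif2s3y, Kdm5d and Uty lay at or above the 77.8 percentile of the array and Xist, the RNA of the inactive X chromosome, at or below the 31.2 percentile, which goes against that label. Whether these probe sets pick up other transcripts was not tested. The label of neural cells was borne out, with the 6 neural stem cell markers averaging 9.57 to 9.80 at day 0 on the log2 scale.

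Fos, Fosb and Fosl2 all fell between day 0 and day 4 in all 3 genotypes. Fos encodes the prototype partner of Jun. At day 0 its log2 values were 10.46, 10.65 and 10.55 in wild type, 10.55, 10.21 and 10.80 in knockout, and 10.28, 10.48 and 10.33 in mosaic cultures. At day 4 they were 5.14, 5.0 and 5.10 in wild type, 5.14, 5.0 and 5.13 in knockout, and 5.26, 5.05 and 5.21 in mosaic cultures. All 9 arrays of day 0 lay about 5 log2 units above all 9 of day 4, and within a day the genotypes overlapped. The log2 fold change in wild type was -5.48, that of knockout -5.43 and that of mosaic cultures -5.19, each ± 0.12 (SE). These are falls of 44.5-fold, 43.2-fold and 36.5-fold, with limma adjusted p of 1.99e-14, 2.26e-14 and 4.74e-14. In each genotype Fos had the lowest log2 fold change of all 19016 genes. Among all 41345 probe sets of its array, Fos lay at the 97.9 to 98.8 percentile at day 0. At day 4 it lay at the 51.0 to 56.4 percentile. No detection calls were at hand, so it was not known whether the day 4 level lay above background, and if it did not, the fold changes understate the fall.

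Fosb, whose short splice form is a long-lived factor in stimulated neurons, read 9.08, 8.90 and 8.99 in wild type, 9.17, 8.85 and 9.34 in knockout and 8.97, 8.80 and 8.52 in mosaic cultures at day 0. By day 4 it read 5.45, 4.75 and 5.63 in wild type, 4.81, 5.10 and 5.61 in knockout, and 5.73, 4.81 and 5.18 in mosaic cultures. The days did not overlap in any genotype, and the day 4 arrays of a group were spread over up to about 0.9 log2 units, more widely than those of Fos. Its log2 fold change was -3.71 in wild type, -3.95 in knockout cultures and -3.52 in mosaic ones, each ± 0.25 (SE), with adjusted p of 2.28e-08, 1.08e-08 and 3.26e-08. By size of fall it was number 10, number 6 and number 8 of all genes.

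Fosl2, a Fos-related factor with slower and more lasting expression, had smaller changes. At day 0 it read 7.31, 7.62 and 6.95 in wild type, 7.34, 7.10 and 7.44 in knockout, and 7.29, 7.52 and 7.24 in mosaic cultures. After 4 days it read 6.10, 6.13 and 6.33 in wild type, 5.61, 5.91 and 5.97 in knockout, and 6.38, 5.62 and 5.59 in mosaic cultures. All day 0 arrays lay above all day 4 arrays. The log2 fold changes were -1.10 in wild type, -1.46 in knockout cultures and -1.48 in mosaic ones, each ± 0.19 (SE), with adjusted p of 0.000357, 2.36e-05 and 1.95e-05.

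Jun, Junb and Jund also fell in all 3 genotypes. Jun, the main partner of Fos, remained high on the array at day 4. It read 10.90, 11.06 and 11.05 in wild type, 10.91, 10.83 and 11.10 in knockout, and 10.90, 11.02 and 11.03 in mosaic cultures at day 0. Its day 4 values were 8.48, 9.09 and 8.76 in wild type, 9.09, 8.95 and 9.06 in knockout, and 9.15, 9.13 and 8.92 in mosaic cultures. The days did not overlap, and the lowest array of all was replicate 1 of wild type at day 4. The log2 fold changes were -2.23 in wild type and -1.92 in both knockout and mosaic cultures, each ± 0.13 (SE), with adjusted p of 3.1e-09, 1.5e-08 and 1.53e-08. Jun lay between the 98.8 and 99.1 percentile of its array at day 0 and between the 91.7 and 94.9 percentile at day 4.

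Junb, which pairs with Fos proteins and can act against Jun, read 8.38, 8.83 and 8.23 in wild type, 8.47, 8.45 and 8.56 in knockout and 8.14, 8.51 and 8.13 in mosaic cultures at day 0. At day 4 it read 6.88, 6.22 and 6.68 in wild type, 6.25, 6.19 and 6.34 in knockout, and 6.57, 6.38 and 6.19 in mosaic cultures. Day 0 was above day 4 on every array, with the knockout arrays closest to each other at both days. The log2 fold changes were -1.89 in wild type, -2.24 in knockout cultures and -1.88 in mosaic ones, each ± 0.17 (SE), with adjusted p of 4.23e-07, 6.6e-08 and 4.4e-07.

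Jund is the Jun gene with the steadiest expression in most cells and is little induced by stimulation. Its brighter probe set read 9.34, 9.30 and 9.37 in wild type, 9.36, 9.49 and 9.47 in knockout, and 9.52, 9.36 and 9.34 in mosaic cultures at day 0. By day 4 it read 8.70, 8.44 and 8.43 in wild type, 8.41, 8.51 and 8.48 in knockout, and 8.68, 8.42 and 8.55 in mosaic cultures. The days did not overlap. The log2 fold changes were -0.82, -0.97 and -0.86 in wild type, knockout and mosaic cultures, each ± 0.09 (SE), with adjusted p of 4.43e-06, 6.59e-07 and 2.55e-06. Its second probe set disagreed. It ranged from 5.82 to 6.25 at day 0 and from 5.92 to 6.47 at day 4, with log2 fold changes of 0.19, -0.04 and -0.05 (SE 0.12) and adjusted p of 0.284, 0.879 and 0.85. With the mean of both probe sets the log2 fold changes of Jund were -0.32, -0.51 and -0.45, with adjusted p of 0.0172, 0.000654 and 0.0017, so the size of its fall depended on the probe set.

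Of the remaining 3 members, Atf3 fell in all 3 genotypes, and Batf3 and Maff fell by less and were not called in every one. Atf3, a stress-induced factor that often represses transcription, read 8.23, 8.26 and 8.28 in wild type, 8.24, 7.67 and 8.43 in knockout, and 8.14, 8.47 and 8.45 in mosaic cultures at day 0. After 4 days it read 6.27, 6.45 and 6.26 in wild type, 5.54, 5.92 and 6.59 in knockout, and 6.08, 5.97 and 6.37 in mosaic cultures. The days did not overlap, and the knockout arrays were the most spread at both days. The log2 fold changes were -1.93 in wild type, -2.09 in knockout cultures and -2.21 in mosaic ones, each ± 0.22 (SE), with adjusted p of 4.4e-06, 1.81e-06 and 1.02e-06.

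Batf3, a factor without a transactivation domain of its own that is known for its role in dendritic cells, lay in the middle of the array at both days. At day 0 it read 5.30, 5.10 and 5.15 in wild type, 5.22, 5.35 and 5.07 in knockout, and 4.93, 4.56 and 4.93 in mosaic cultures. Its day 4 values were 4.83, 4.73 and 4.67 in wild type, 4.59, 4.77 and 4.91 in knockout, and 4.30, 4.58 and 4.58 in mosaic cultures. The wild type and knockout arrays of day 0 lay above those of day 4, while the mosaic days overlapped through replicate 2 of day 0. Batf3 fell in wild type (log2 fold change -0.45 ± 0.12 SE, adjusted p = 0.00924) and knockout cultures (-0.46 ± 0.12, adjusted p = 0.00862), and did not pass in mosaic cultures (-0.32 ± 0.12, adjusted p = 0.0647). Without replicate 2 of mosaic day 0 the mosaic value was -0.44 with an adjusted p of 0.0158.

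Maff, a small MAF protein that also lacks a transactivation domain, had the smallest changes with Batf3. At day 0 it read 6.20, 6.26 and 6.25 in wild type, 6.12, 6.07 and 6.14 in knockout, and 6.12, 6.35 and 5.93 in mosaic cultures. At day 4 it read 6.02, 5.96 and 5.82 in wild type, 5.79, 5.51 and 5.65 in knockout, and 6.04, 5.75 and 5.58 in mosaic cultures. The days overlapped in mosaic cultures only. Maff fell in knockout cultures (log2 fold change -0.46 ± 0.12 SE, adjusted p = 0.00783) and in mosaic cultures (-0.34 ± 0.12, adjusted p = 0.0433), and did not pass in wild type (-0.31 ± 0.12, adjusted p = 0.0592). The mosaic call was lost without replicate 1 or 2 of mosaic day 0 (adjusted p = 0.086 and 0.21) or replicate 2 or 3 of mosaic day 4 (adjusted p = 0.112 and 0.198), and under 4 other settings.

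**Figure D1:**
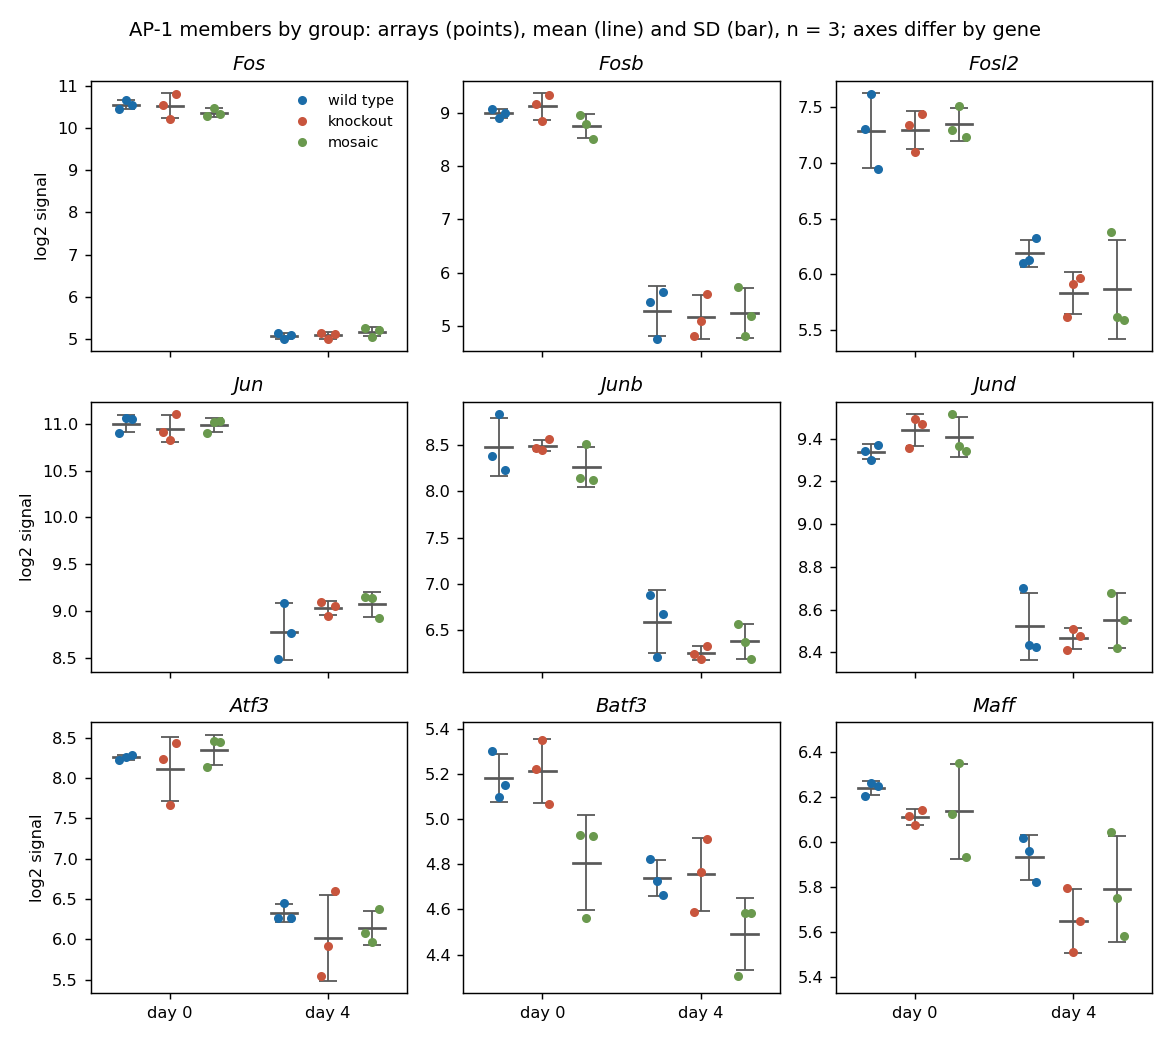
Log2 signal of the 9 measured members (one panel each, with its own vertical axis) in wild type, knockout and mosaic cultures at day 0 and day 4. Points are arrays, lines group means and bars SDs (n = 3), and the panels show the separation of days for Fos, from 10.21 or more to 5.26 or less, and the overlap of mosaic days for Batf3 and Maff.

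Counted together, 8 of the 9 members were called lower at day 4 in wild type, where 16.3% of all genes were. In knockout cultures 9 of 9 were called lower, against 12.4% of all genes, and in mosaic cultures 8 of 9, against 11.9%. Members called higher numbered 0 in each genotype, against 17.2% of all genes in wild type, 15% in knockout cultures and 14.4% in mosaic ones. Fos, Fosb, Fosl2, Jun, Junb and Atf3, 6 of 9, fell by 2-fold or more in every genotype, as did 2.79%, 2.47% and 2.35% of all genes in wild type, knockout and mosaic cultures. All 9 members lay lower at day 4 without overlap of arrays in both wild type and knockout cultures, against 21.9% and 17.1% of all genes. In mosaic cultures 7 of 9 did, against 17.8%. The median log2 fold change of the members was -1.89, -1.92 and -1.88, and that of all genes 0.09, 0.02 and 0.02. The 3 comparisons use separate arrays but share the estimate of the spread. Under quantile normalization the split of all calls in wild type moved from 51.4% to 61.6% higher, and with a common array median it moved to 44.7% higher. No member changed direction under either scaling.

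**Figure D2:**
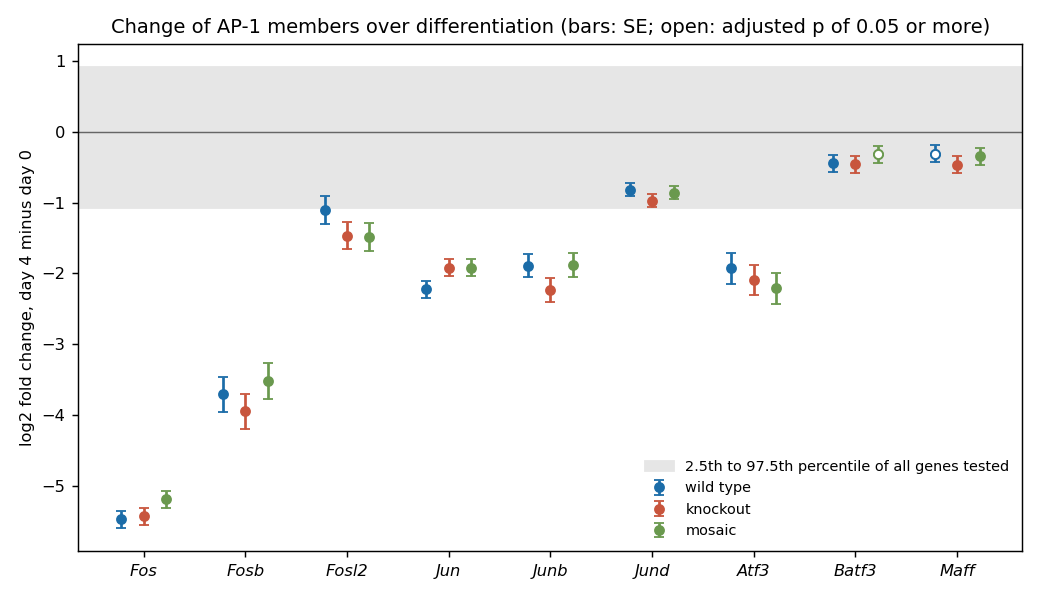
Log2 fold change from day 0 to day 4 of each member in each genotype, with SE bars, filled where the adjusted p was under 0.05 and open where it was not (Batf3 in mosaic and Maff in wild type). The grey band leaves out 2.5% of all genes tested at each end and is drawn at its lowest and highest limits over the genotypes (-1.07, wild type, and 0.92, mosaic), and Fos, Fosb, Fosl2, Jun, Junb and Atf3 lie below it in all 3 genotypes.

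Markers of cell types moved with the day as well. The 5 oligodendrocyte markers measured averaged 5.39 to 6.09 on the day 0 arrays and 9.23 to 9.95 on the day 4 arrays, and all 5 rose in each genotype. The 6 neuron markers averaged 7.66 to 7.98 and 8.56 to 9.04, with 5 of 6 called higher in each genotype. The 6 neural stem cell markers averaged 9.57 to 9.80 and 9.0 to 9.12, with 3 called lower and 1 higher. All 6 astrocyte markers were called in each genotype, 4 higher and 2 lower, and averaged 8.93 to 9.52 at day 0 and 9.44 to 9.89 at day 4. The 2 lower ones were Gfap, the filament gene of astrocytes (-1.68 ± 0.27 SE in wild type), and Aldh1l1 (-0.59 ± 0.16). Of the 4 oligodendrocyte progenitor markers, which averaged 8.17 to 8.64 and 8.98 to 9.42, 3 were called higher in each genotype. The remaining one, Cspg4, was called lower in knockout cultures and not called in wild type or mosaic ones. Microglia and endothelial markers stayed low at both days. The 7 microglia and macrophage markers averaged 4.22 to 4.50 at day 0 and 4.30 to 4.54 at day 4, with Ptprc under the filter, and the 4 endothelial markers averaged 4.42 to 4.68 and 4.36 to 4.80. The part of the changing cell makeup in the fall of the AP-1 members was not tested.

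Between genotypes within a day, 0 of the 9 members was called by limma in any of the 6 comparisons, as were 0 of 19016 genes (0%). The latter count was not stable at day 4. Leaving out replicate 1 of mosaic day 4 gave 256 called genes for mosaic against wild type (135 higher, 121 lower). It gave 10 for mosaic against knockout, and members called were still 0 in both. The 19016 genes include the targeted gene Pcdh19, which was not called either. Its knockout arrays at day 0 (mean 5.51) lay below all wild type ones (mean 6.78). A difference of that size thus went uncalled for Pcdh19, whose spread in the fit is shared by all 6 groups. Its SD was 0.11 in wild type and 0.15 in knockout at day 0, but 0.79 in mosaic cultures at day 4. What could go uncalled for a member depends on that member's own spread. The members' SEs between groups ran from 0.09 (Jund) to 0.25 (Fosb), so Pcdh19 is no measure for them. At day 0 the members' log2 differences between knockout and wild type ran from -0.14 (Atf3) to 0.13 (Fosb), and 0 members had an unadjusted p under 0.05, against 3.61% of all genes. For Fos the difference was -0.03, with a 95% interval of -0.28 to 0.22. Batf3 was the 1 member with an unadjusted p under 0.05 in the mosaic comparisons. It read 4.93 or less on the 3 mosaic arrays of day 0 and 5.07 or more on the 6 others. Its difference was -0.38 from wild type (95% interval -0.63 to -0.12, unadjusted p = 0.00633, adjusted p = 0.999) and -0.41 from knockout (-0.66 to -0.15, unadjusted p = 0.00379, adjusted p = 1). The shares of all genes at that unadjusted threshold were 4.3% and 4.24%. These comparisons share the mosaic arrays.

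At day 4 the highest mosaic array of Batf3 (4.585) lay only just below the lowest of the 6 others (4.588, knockout). The differences were -0.25 from wild type (95% interval -0.50 to 0.01, unadjusted p = 0.0554) and -0.27 from knockout (-0.52 to -0.01, unadjusted p = 0.0424, adjusted p = 0.797, limma), where 6.07% of all genes had an unadjusted p under 0.05. Maff lay lower in knockout cultures than in wild type ones without overlap (-0.28, 95% interval -0.54 to -0.03, unadjusted p = 0.0313, adjusted p = 0.347), in a comparison where 12.7% of all genes passed the unadjusted threshold. Jun was higher in mosaic than in wild type with overlap (0.29, 95% interval 0.03 to 0.56, unadjusted p = 0.0337, adjusted p = 0.284), where 15.9% of genes did. Fosl2 read 5.97 or less in knockout and 6.10 or more in wild type, a difference of -0.36 (95% interval -0.77 to 0.05). The share of all genes that separated without overlap was not counted for comparisons between genotypes. Fos differed by 0.01 between knockout and wild type (-0.24 to 0.26) and by 0.09 between mosaic and wild type (-0.16 to 0.35). The widest interval of any member reached 0.53 to either side, that of Fosb. These intervals are not adjusted for the number of genes tested. A call needed a larger difference than an interval that leaves out 0, so differences above 0.53 could also go uncalled.

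**Figure D3:**
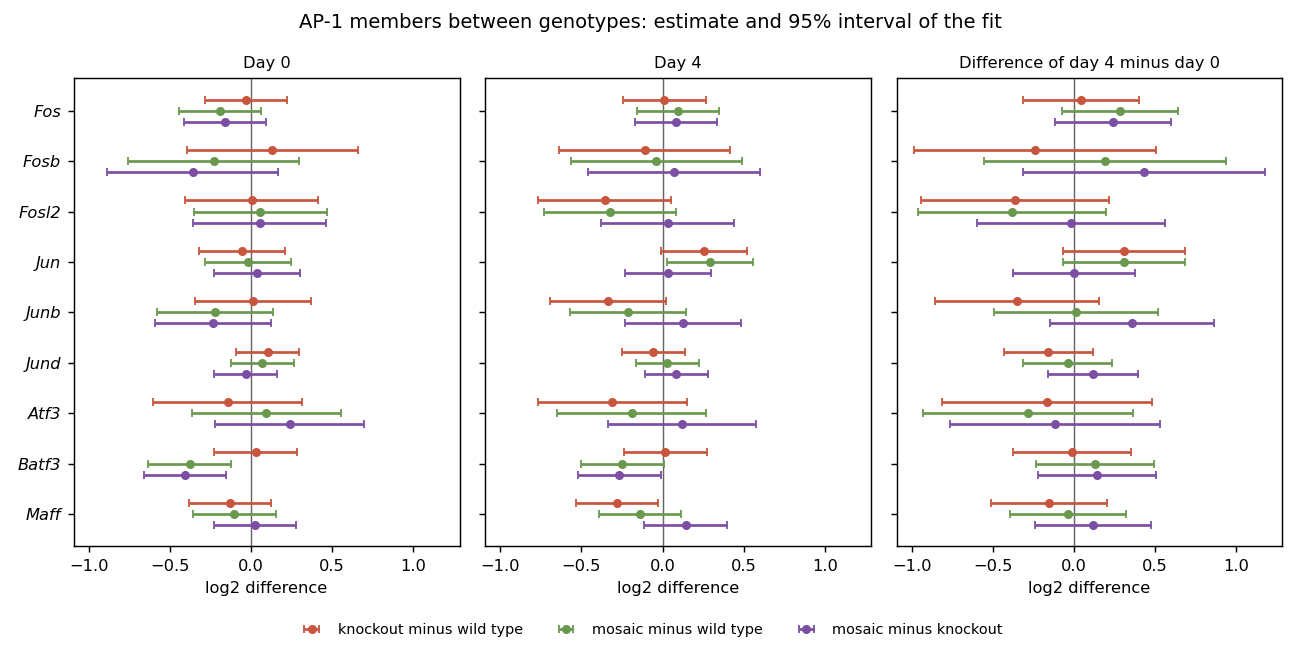
Log2 differences between genotypes for each member with 95% intervals, at day 0, at day 4 and for the change from day 0 to day 4. Intervals of Batf3 in mosaic cultures at day 0 end below 0, at -0.12 against wild type and -0.15 against knockout. At day 4 those of Batf3 in mosaic against knockout and Maff in knockout against wild type end at -0.01 and -0.03. That of Jun in mosaic against wild type at day 4 starts at 0.03. Of all the differences, 0 had an adjusted p under 0.05.

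The change over differentiation was then compared between genotypes, which tests whether the fall itself differed. By limma 0 of 9 members and 0 of 19016 genes (0%) were called in the 3 comparisons, and 0 members had an unadjusted p under 0.05, against 9.51% of genes for knockout and wild type, 12.4% for mosaic and wild type, and 4.29% for mosaic and knockout. For Fos the fall differed by 0.04 between knockout and wild type (95% interval -0.31 to 0.40), by 0.29 between mosaic and wild type (-0.07 to 0.64) and by 0.24 between mosaic and knockout (-0.12 to 0.60). Against wild type, the lowest difference was that of Fosl2 (-0.36 in knockout and -0.38 in mosaic cultures) and the highest that of Jun (0.31 in both). The call of Batf3 and the lack of one for Maff in wild type are therefore no evidence that these genes fell differently between genotypes. All these comparisons share arrays with each other.

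Related genes were described by lists. Falls of some immediate early genes on these arrays were known when the lists were drawn up, so their counts are no independent evidence. Of 26 other immediate early genes, 18 fell among wild type cultures, 19 among knockout and 20 among mosaic ones (against 16.3%, 12.4% and 11.9% of all genes), with a median log2 fold change of -1.72, -1.58 and -1.52. In wild type the zinc finger factor Egr1 changed by -4.65 ± 0.14 (SE), the nuclear receptor Nr4a1 by -3.89 ± 0.21, the mRNA-decay protein Zfp36 by -3.44 ± 0.21 and Ier2 by -2.95 ± 0.17. The 2 genes that rose in each genotype were Myc, which drives growth, by 0.52 ± 0.11 in wild type, and the kinase gene Sgk1, by 0.92 ± 0.14, both named after their values were seen. Of 15 regulators of AP-1 mRNA and protein turnover, 6 fell and 2 rose in each genotype (of all genes, 16.3%, 12.4% and 11.9% fell and 17.2%, 15% and 14.4% rose), with medians of -0.12, -0.15 and -0.09. Besides Zfp36, which is in both lists, Dusp1 (also in both) and Dusp10, phosphatases that switch off MAP kinases, changed by -2.32 ± 0.15 and -1.62 ± 0.18 in wild type, and Zfp36l1 by -1.18 ± 0.09.

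Genes upstream of Fos and Jun moved less. Of 23 kinases and factors, 10 fell and 2 rose in wild type, 5 fell and 3 rose in knockout, and 5 fell and 2 rose in mosaic cultures, with medians of -0.16, -0.07 and -0.03. Of all genes, 16.3%, 12.4% and 11.9% fell and 17.2%, 15% and 14.4% rose in the 3 genotypes, so the rises in the list were no more frequent than among all genes. Srf, the serum response factor that drives Fos, changed by -1.45 ± 0.15 (SE) in wild type, and the kinase genes Araf, Map2k6 and Rps6ka5 by -0.83 ± 0.14, -0.65 ± 0.15 and -0.58 ± 0.10. Map2k6 was not called in knockout cultures, at -0.32 (adjusted p = 0.136), and its mosaic call was lost without several mosaic arrays, replicate 3 of day 4 among them (adjusted p = 0.154). Of 24 dimer partners and related leucine zipper factors, 13 fell and 3 rose in wild type, 12 fell and 2 rose in knockout, and 10 fell and 1 rose in mosaic cultures (medians -0.33, -0.31 and -0.17). The rises among them were also no more frequent than among all genes. The stress factor Ddit3 changed by -1.48 ± 0.12 in wild type, Cebpd by -1.21 ± 0.16 and Atf5 by -0.90 ± 0.22, while Nfe2l3 rose by 1.26 ± 0.19.

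Textbook AP-1 targets included genes that fell and genes that rose. Of 23 tested, 7 fell and 5 rose in wild type, 8 fell and 4 rose in knockout, and 10 fell and 5 rose in mosaic cultures, with medians of 0.19, -0.05 and -0.10. These counts stand beside 16.3%, 12.4% and 11.9% of all genes that fell and 17.2%, 15% and 14.4% that rose. The angiogenic factor Vegfa changed by -2.04 ± 0.24 (SE) in wild type, the protease inhibitor Timp1 by -1.15 ± 0.21 and the intermediate filament gene Vim by -0.95 ± 0.08, and Fth1, which encodes ferritin heavy chain, rose by 1.0 ± 0.07. Of the 19 genes named from the 5 lists, 18 were called in all 3 genotypes, Map2k6 being the exception. They were picked for a call and a large change in wild type, so their wild type calls were fixed by the choice. The count is therefore only a description.

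**Figure D4:**
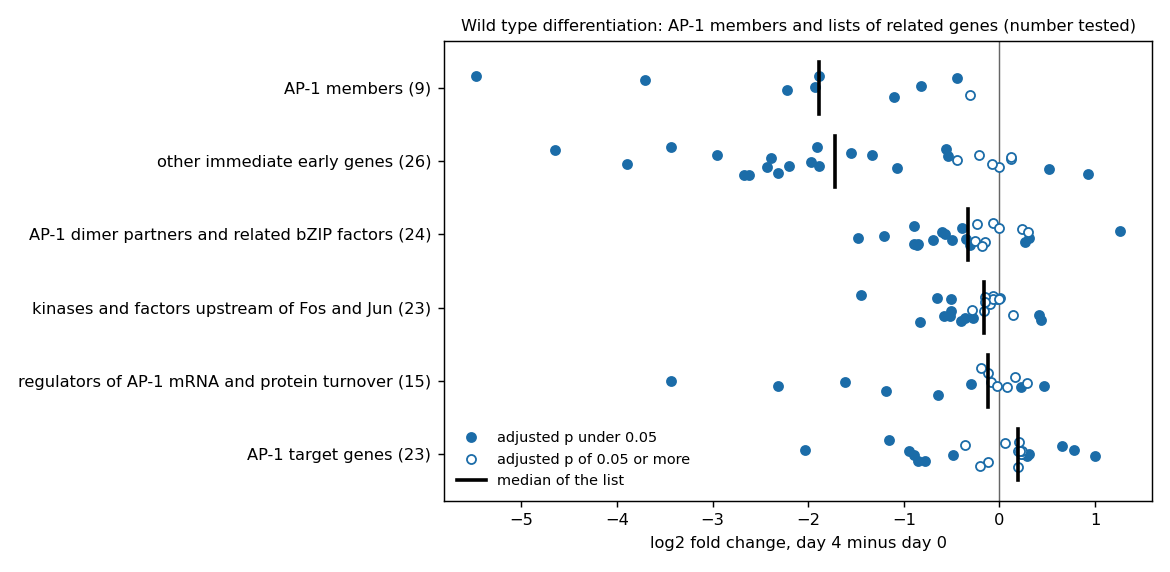
Log2 fold change from day 0 to day 4 in wild type for the AP-1 members and for the genes of each related list, one point per gene (filled where the adjusted p was under 0.05), with the median of each list as a bar. The members' median is -1.89, that of other immediate early genes -1.72 and that of AP-1 targets 0.19.

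By pattern over the 18 arrays, Egr1 was nearest to Fos of all genes kept. The measure was the root mean square difference of log2 values after each gene's own mean was taken off, and it was 0.473 for Egr1, 0.705 for Moxd1, 0.743 for Hspa1a, 0.744 for Fbln2 and 0.821 for Nr4a1, where the root mean square of Fos itself was 2.69. For Jun (1.02) the nearest were Tbc1d4 at 0.170, Pros1 at 0.198, Ccn1 at 0.200, Parpbp at 0.204 and Spdl1 at 0.222. For Atf3 (1.07) they were Cdc20 at 0.255, Ier3 at 0.261, Plk1 at 0.263, Tacc3 at 0.264 and Dlgap5 at 0.265. No AP-1 member was among the 5 nearest of Fos, Jun or Atf3. The measure keeps the size of each change, so Fos lies far from members with smaller falls, whatever their pattern over the arrays.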

How the data were processed

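The authors deposited 1 table of normalized values, 1 per probe set and array, whose range is that of a log2 scale. Neither its log base nor its normalization is stated in the sources at hand, and base 2 was assumed. Of 41345 probe sets, 23521 had 1 symbol in the platform annotation and were used.

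Genes were kept if above the 25th percentile of the array on at least 3 arrays. Group means for 6 groups were fitted to all 18 arrays with limma 3.58.1 in R 4.3.3 (degrees of freedom: 12 residual, 4.36 prior). For 12 contrasts, two-sided moderated tests were adjusted by Benjamini-Hochberg over 19016 genes, and genes were called at an adjusted p under 0.05. Standard errors had a median of 0.126 between groups, and of 0.178 where changes were compared between genotypes. The number of arrays limits this precision. The scripts were tested on simulated data.

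The members, lists, tests and alternatives were chosen with earlier results of these data known. Of each list, up to 4 called genes with the largest change in wild type were named, and for Fos, Jun and Atf3 the 5 nearest in pattern. The alternatives were 9 other settings and leaving out each array. For the related genes they were added after seeing the data. Pairs of arrays of a group that could be 1 library deposited under 2 names (r over 0.9999) numbered 0. Figures were drawn with matplotlib 3.10.9.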

Additional observations from a re-analysis of the deposited data

How the results depend on the processing

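The number of members called stayed at 8 to 9 in wild type, at 9 in knockout and at 7 to 9 in mosaic cultures over the 9 settings, and at 8, 9 and 7 to 8 when an array was left out. It was 0 in all 9 genotype comparisons throughout, with lowest adjusted p of 0.0813 (Fosl2, day 4, mosaic against wild type, without replicate 1 of mosaic day 4) and 0.193 for a difference of differentiation. Of 405 alternative values for differentiation, 391 kept their direction and side of the threshold, 8 lost a call and 6 gained one, and 0 reversed. The 8 were Maff in mosaic cultures, which besides the arrays named lost its call under quantile normalization (adjusted p = 0.0878), a common array median (0.0725), no filter (0.0544) and the compared groups alone (0.164). Gained calls were Maff in wild type (common median 0.0351, stricter filter 0.0429, array weights 0.0309, compared groups alone 0.0305) and Batf3 in mosaic cultures (stricter filter 0.044, and the array named). Over all genes, the calls in a genotype comparison reached 256 and 10 without replicate 1 of mosaic day 4 and 0 to 5 under the other alternatives. Genotype values changed sign in 50 of 810 cases and differences of differentiation in 42 of 567, none of them called. Of 855 values for related genes 6 lost and 1 gained a call, all of Map2k6, and of the list counts the most unstable was that of upstream genes that rose in knockout cultures, 0 to 3. Same-numbered arrays correlated at a median of 0.03 in their deviations from group means (-0.15 to 0.17), and 14 of 18 lay closest to their own number, a hint from the data only. With the replicate block 6328, 5208 and 4984 genes were called in wild type, knockout and mosaic differentiation, against 6386, 5211 and 4989 without it, and the members called with the block numbered 8, 9 and 8. Depth does not apply to arrays, and signal over background was not at hand, which limits the low day 4 values.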

Other observations

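Within some groups many members deviated in the same direction on an array. In knockout cultures at day 0, replicate 2 was the lowest of the 3 arrays for 7 of the 9 members (mean deviation from the group mean -0.14 on the log2 scale, all genes 0.004) and replicate 3 the highest for 7 (0.12, all genes 0.002). In mosaic cultures at day 4, replicate 1 was the highest for 7 of 9 (0.17, all genes 0.003). In knockout cultures at day 4, replicate 3 was the highest for 5 and the lowest for 0 (0.16). These arrays were picked after their values were seen, and no test was made. The share of all genes that were highest or lowest on these arrays was not counted. The mean deviation of all genes was small on every array, so it is no measure of how unusual the members were.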
